A study of Mus musculus with 12 samples.

Results

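The Notch pathway genes described here are the receptor genes Notch1, Notch2, Notch3 and Notch4, the Jagged ligand genes Jag1 and Jag2, and the transcription factor genes Hes1, Hes5, Hey1 and Hey2. They were chosen by symbol, and all 10 were found among the 23284 gene symbols of the count table. RNA was measured by poly-A sequencing in single whole mouse embryos of C57BL/6 x 129Sv background, 9.0 days after fertilization and matched at about 9 to 10 somites. The labels put 4 embryos in a wild-type group and 8 in a group null for Tgif1 and Tgif2, which the series text calls conditional double mutants. No source used here names the Cre driver, the deleted exons or the litters. Tgif1 and Tgif2 encode homeodomain repressors, and the comparison asks how transcripts of the Notch pathway differ in embryos carrying the mutant label.

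Notch receptors are single-pass membrane proteins that bind Jagged or Delta ligands on a neighbouring cell. Binding leads to cleavage by an ADAM protease and then by gamma-secretase, and the freed intracellular domain joins the DNA-binding protein Rbpj in the nucleus and activates target genes, of which Hes and Hey genes are the best known. Hes and Hey proteins are repressors of the basic helix-loop-helix class. In the early embryo the pathway keeps neural progenitors undifferentiated, sets the rhythm of somite formation, separates arterial from venous endothelium and patterns the heart.

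The RefSeq promoter table of build GRCm38.p6 held 8 of the 10 genes, all but Hes1 and Hey1. The 3 sequences below are the 250 bases before the annotated start of Hes5 and Hey2, both Notch target genes, and of Jag2, the gene with the widest difference between the groups. Each is written 5′ to 3′ on the strand of the gene, with the letters TGGGAA, the core of the Rbpj recognition sequence, or their reverse complement in capitals.
Hes5, chr4:154960673-154960922, plus strand: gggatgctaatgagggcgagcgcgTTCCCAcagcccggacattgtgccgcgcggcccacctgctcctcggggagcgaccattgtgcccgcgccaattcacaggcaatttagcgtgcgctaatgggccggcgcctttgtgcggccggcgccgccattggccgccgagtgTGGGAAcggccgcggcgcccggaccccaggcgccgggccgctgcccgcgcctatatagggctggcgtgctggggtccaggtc
Hey2, chr10:30842784-30843033, minus strand: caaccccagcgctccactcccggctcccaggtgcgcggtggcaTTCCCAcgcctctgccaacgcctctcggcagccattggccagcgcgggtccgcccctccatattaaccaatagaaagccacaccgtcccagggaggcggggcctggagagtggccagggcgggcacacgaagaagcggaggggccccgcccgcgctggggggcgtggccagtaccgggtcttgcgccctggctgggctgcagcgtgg
Jag2, chr12:112929496-112929745, minus strand: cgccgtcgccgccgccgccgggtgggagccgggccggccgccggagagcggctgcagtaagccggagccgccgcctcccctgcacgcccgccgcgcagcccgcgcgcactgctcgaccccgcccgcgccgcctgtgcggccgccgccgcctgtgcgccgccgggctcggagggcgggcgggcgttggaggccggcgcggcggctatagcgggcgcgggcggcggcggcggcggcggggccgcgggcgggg

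The Hes5 window held 2 matches to TGGGAA and the Hey2 window 1, while the windows of Jag1, Jag2 and the 4 receptor genes held 0. Of all 32851 windows of this length in the table, 21.6% held at least 1 match on either strand and 2.8% held 2 or more. Every match in Hes5 and Hey2 was also a match to the longer GTGGGAA, which contains the core and was found in 5.4% of all windows. The letters TGTCA, the core recognized by TGIF proteins, occurred 1 time each in the Notch3 and Notch4 windows and 0 times in the other 6 genes, against 40.0% of all windows with at least 1 match. The Jag2 window was the richest in G and C, at 87.2%. A match is a stretch of letters and not a measured binding site.

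The libraries held 17296017 to 20080786 counts in wild-type embryos and 16802367 to 21346245 in the others. Tgif1 stood at 60.9 ± 2.52 CPM (read counts scaled to a common library size; SD, n = 4) in wild type and 6.2 ± 0.528 CPM (SD, n = 8) in the other group, whereas Tgif2 was at 87.3 ± 1.17 and 97.9 ± 11.8 CPM (adjusted p = 0.0958). The Tgif2 counts were not lower, so that side of the label has no check here, and the 8 embryos are called mutant-labelled. Tgif2 has 2 near-identical pseudogene copies, whose part in its counts was not tested. Embryo 2 of the mutant-labelled group differed from the rest in tailbud and presomitic markers: 7 of them, with Hoxb9, Cdx4 and T the most abundant, summed to 25.9 CPM in it against a group median of 162 CPM. Its sum over 7 primitive red cell markers was also the lowest of its group (36.9 CPM, median 378 CPM). Its sum over 7 heart muscle markers was the highest (3416 CPM, median 2351 CPM). Wild-type embryo 1 stood apart in 7 yolk sac endoderm markers, with a sum of 478 CPM against a group median of 1295 CPM. Several results are also given without 1 of these embryos, or as a range over single left-out embryos.

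Of the 10 genes, 4 rose in the mutant-labelled embryos (Jag2, Hey2, Notch4 and Notch2), 2 fell (Notch1 and Jag1) and 4 did not pass the test (Notch3, Hes1, Hes5 and Hey1), at an adjusted p threshold of 0.05 by edgeR. Among all 14412 genes tested 51.5% were called, 26.6% as higher and 24.9% as lower, so the share called among these genes, 60.0%, was close to that of any gene. Only the rise of Jag2, 2.84-fold, exceeded 1.5-fold, a size reached by 16.5% of all genes tested among the calls. The median log2 fold change was 0.04 over the 10 genes and 0.01 over all genes. In whole-embryo RNA, a change in the number of cells of one type and a change in RNA per cell cannot be told apart.

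**Figure D1:**
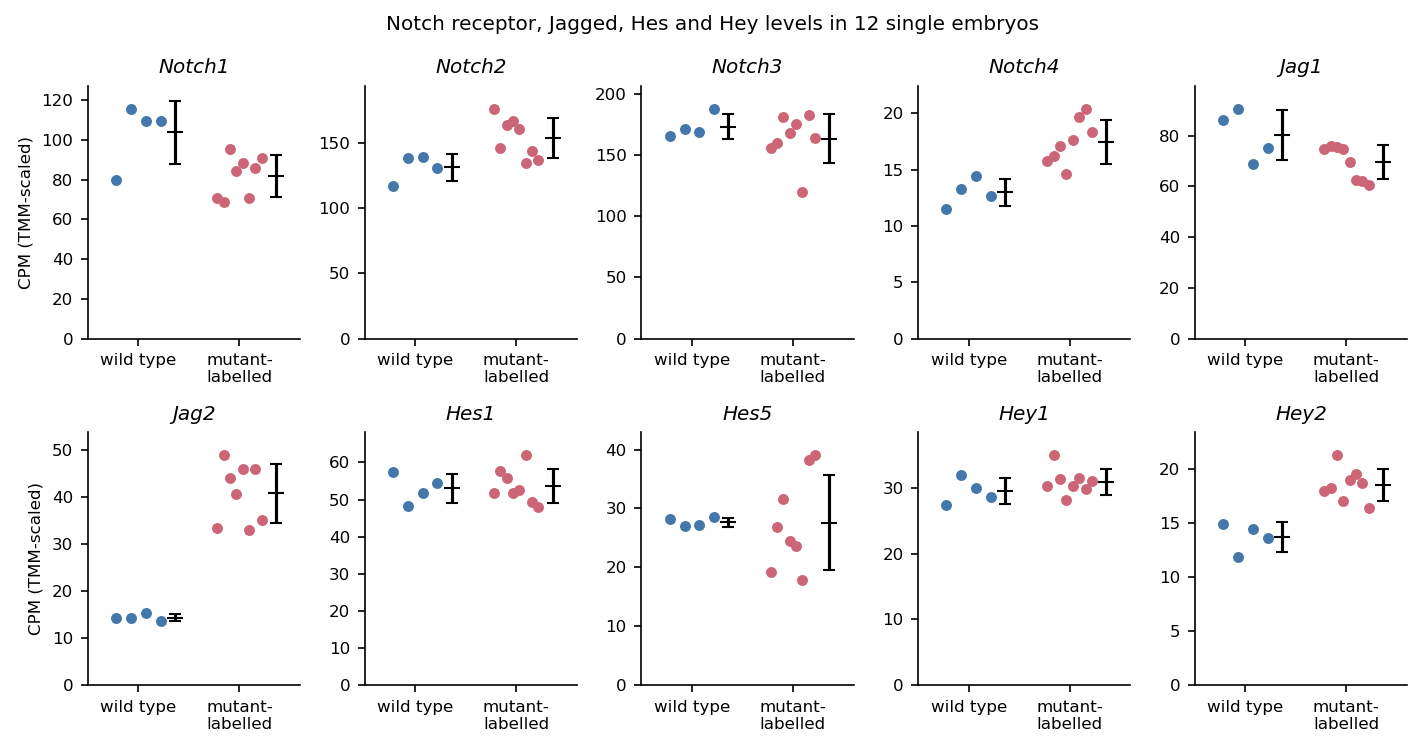
TMM-scaled CPM (vertical axis, from 0) of each of the 10 genes in 4 wild-type (blue) and 8 mutant-labelled (red) embryos; each point is 1 embryo and black bars give the mean ± SD. The groups are separate for Notch4, Jag2 and Hey2, and Hes5 is tightly grouped in wild type but runs from 17.8 to 39.0 CPM in mutant-labelled embryos.

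Among the receptors, Notch4 had the widest relative difference. Notch4 is a receptor known from endothelial cells. It was measured at 11.5, 13.3, 14.4 and 12.7 CPM in wild-type embryos 1 to 4 and at 14.6 to 20.4 CPM in mutant-labelled embryos (median 17.4). Every mutant-labelled embryo lay above every wild-type embryo. The log2 fold change was 0.43 (SE 0.10, adjusted p = 0.00193), a 1.35-fold rise (95% interval 1.16 to 1.55). After removal of trends on GC content and length it was 0.27 (adjusted p = 0.0476), close to the threshold. Over all genes tested the groups did not overlap in 34.7%, and in 17.5% every mutant-labelled embryo was the higher.

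Endothelial markers were also higher in the mutant-labelled embryos, and their part in the Notch4 result was not tested. Of 10 such markers 7 rose and none fell, against 26.6% higher and 24.9% lower of all genes tested. Cdh5 and Tek were among the 7, and the median log2 fold change of the 10 markers was 0.44. The most abundant, Kdr, stood at 138 and 153 CPM and did not pass. Their summed level ran from 397 to 471 CPM in wild type and from 519 to 721 CPM in mutant-labelled embryos. Per unit of that sum, Notch4 gave 30.1 ± 0.739 CPM per 1000 CPM of endothelial markers in wild type (SD, n = 4) and 29.8 ± 3.04 in mutant-labelled embryos (SD, n = 8). The mutant-labelled range of 25.4 to 35.2 enclosed the wild-type range of 29.1 to 30.7. This ratio to a marker sum, and the 3 further on, were chosen after the values were seen and are given as descriptions. A permutation test was run on each, but its p-values are not given because of that choice.

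Notch1 and Notch2, the receptors with the broadest expression in neural tissue and mesoderm, moved in opposite directions by small amounts. Notch1 stood at 80.0, 116, 109.6 and 109.5 CPM in wild-type embryos 1 to 4 and at 68.7 to 95.3 CPM in mutant-labelled embryos (median 85.0). Wild-type embryo 1 was thus far below its group and inside the mutant-labelled range, while the other 3 wild-type embryos lay above all 8 mutant-labelled embryos. The log2 fold change of Notch1 was -0.34 (SE 0.11, adjusted p = 0.0153). It did not pass without wild-type embryo 2 (-0.29, adjusted p = 0.0614), and without wild-type embryo 1 it was -0.45 (adjusted p = 0.00161).

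Notch2 ran the other way, at 117, 139, 139.6 and 131 CPM in wild-type embryos 1 to 4 and at 135 to 176 CPM in mutant-labelled embryos (median 154). In 6 of 8 mutant-labelled embryos it exceeded every wild-type embryo. The log2 fold change was 0.23 (SE 0.08, adjusted p = 0.0209), and it did not pass on leaving out wild-type embryo 1 (0.17, adjusted p = 0.094) and without that embryo and mutant-labelled embryo 2 together (0.19, adjusted p = 0.0814).

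Notch3, a receptor known from neural progenitors and from the mural cells around vessels, did not pass. It was at 165, 171, 169 and 188 CPM in wild type and at 119.8 to 182 CPM in mutant-labelled embryos (median 166), and the groups overlapped. Its fold change was 0.942 (95% interval 0.827 to 1.07). Mutant-labelled embryo 6, the lowest at 119.8 CPM, lay apart from the other 7, which began at 156 CPM. After removal of trends on GC content and length, Notch3 passed as lower (log2 fold change -0.23, adjusted p = 0.00465). Of 6 mural cell markers, 4 rose and 1 fell, against 26.6% higher and 24.9% lower of all genes tested. The summed level of the 6 ran from 451 to 531 CPM in wild type and from 697 to 969 CPM in mutant-labelled embryos. Acta2 was by far the most abundant of them, at 321 ± 34.6 and 564 ± 68.4 CPM, and weighs most in that sum. Pdgfrb, Tagln and Cspg4 also rose, while Myh11 fell (log2 fold change -0.85) and Rgs5 did not pass (adjusted p = 0.801). The part of these markers in the Notch3 values was not tested.

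**Figure D2:**
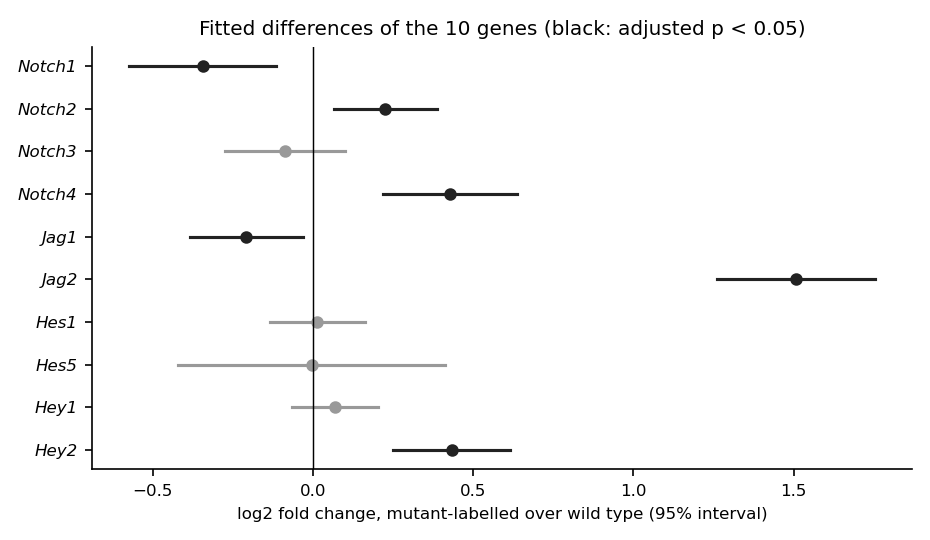
Log2 fold change of mutant-labelled over wild-type embryos (horizontal axis) with its 95% interval for each of the 10 genes, from the edgeR fit. Black marks genes past the 0.05 threshold; Jag2 stands at 1.51, while all other genes lie between -0.34 and 0.43.

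Among the ligands, Jag2 rose in every mutant-labelled embryo. Jag2 is a Notch ligand gene known from limb ectoderm, thymus and craniofacial epithelium. Its level was 14.3, 14.3, 15.3 and 13.7 CPM in wild-type embryos 1 to 4 and 33.0 to 48.8 CPM in mutant-labelled embryos (median 42.3). The groups were far apart, with no overlap. The log2 fold change was 1.51 (SE 0.12, adjusted p = 9.33e-08), or 2.84-fold (95% interval 2.4 to 3.37), and 97.9% of all genes tested had a smaller absolute log2 fold change. It passed in all 22 alternatives, with values from 1.32 to 1.55.

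Heart muscle markers rose in the same embryos: of 7, 5 rose and none fell, against 26.6% higher and 24.9% lower of all genes tested. Actc1, Myh6 and Myl7 were among the 5, and the median log2 fold change of the 7 markers was 0.73. Their summed level ran from 1267 to 1608 CPM in wild type and from 1903 to 3416 CPM in mutant-labelled embryos. The highest values of both the marker sum and Jag2 came from mutant-labelled embryo 2, without which the log2 fold change of Jag2 was 1.47 (adjusted p = 1.12e-07). Per 1000 CPM of these markers, Jag2 gave 10.5 ± 1.12 CPM in wild type (SD, n = 4) and 17.2 ± 1.53 CPM in mutant-labelled embryos (SD, n = 8), with ranges of 8.86 to 11.3 and 14.3 to 19.3. The part of the heart muscle markers in the Jag2 result was not tested.

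Jag1, the ligand of the early vasculature, heart and sensory organs, lay at 86.3, 90.5, 68.8 and 75.2 CPM in wild-type embryos 1 to 4 and at 60.4 to 75.7 CPM in mutant-labelled embryos (median 72.3). Wild-type embryos 3 and 4 fell within the range of the mutant-labelled group. The log2 fold change was -0.21 (SE 0.08, adjusted p = 0.0489), at the edge of the threshold. It failed the threshold in 12 of 22 alternatives: on leaving out wild-type embryo 1, 2 or 4, without mutant-labelled embryo 5, 6, 7 or 8, without wild-type embryo 1 and mutant-labelled embryo 2 together, with upper-quartile scaling, with sample quality weights, with no count filter and without robust dispersions. The adjusted p reached 0.196 without wild-type embryo 2.

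The makeup of Jagged transcripts differed between the groups. Counted per kilobase of exon, Jag2 made up 16.6 ± 2.15% of Jag1 and Jag2 together in wild type (SD, n = 4; range 14.8 to 19.6%) and 39.2 ± 3.65% in mutant-labelled embryos (SD, n = 8; range 32.9 to 44.8%). The 2 ranges did not overlap. Their summed level was 17.1 ± 1.73 and 20.4 ± 1.98 CPM per kilobase, with overlapping ranges of 15.2 to 18.9 and 17.6 to 23.1. Receptor transcripts shifted less: the share of Notch1 was 23.1 ± 2.12% and 18.6 ± 1.57%, that of Notch2 26.7 ± 0.996% and 31.7 ± 2.73%, and that of Notch4 4.18 ± 0.268% and 5.78 ± 0.99%, in wild-type and mutant-labelled embryos. Notch3 was the largest receptor share in both groups, at 46.0 ± 2.7% and 43.9 ± 2.33%.

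**Figure D3:**
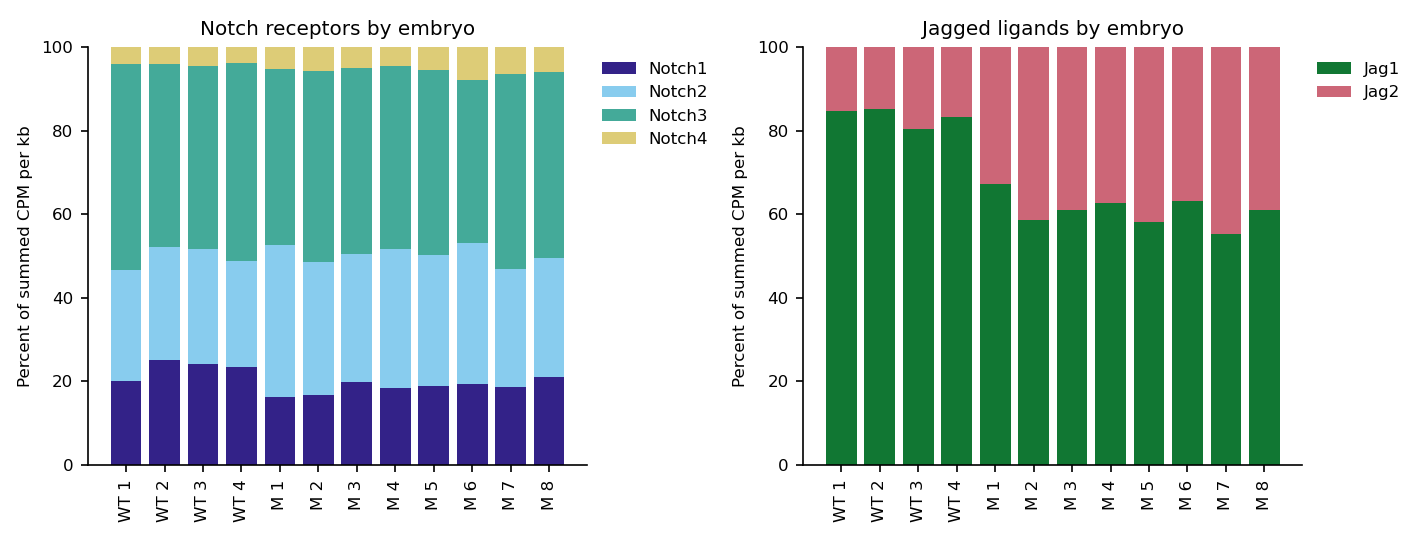
Share of each gene in the summed CPM per kilobase of the 4 receptor genes (left) and of the 2 Jagged genes (right), 1 bar per embryo (WT, wild type; M, mutant-labelled). Jag2 takes 14.8 to 19.6% of the Jagged total in wild-type bars and 32.9 to 44.8% in mutant-labelled bars, while Notch3 stays the largest receptor share.

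Among the target genes, Hey2 rose and Hes1, Hes5 and Hey1 did not pass. Hey2 encodes a repressor of the ventricular heart muscle and of arterial endothelium. Its level was 14.9, 11.8, 14.5 and 13.7 CPM in wild-type embryos 1 to 4 and 16.4 to 21.3 CPM in mutant-labelled embryos (median 18.5), with no overlap. The log2 fold change was 0.43 (SE 0.09, adjusted p = 0.000655), or 1.35-fold (95% interval 1.19 to 1.53). Heart muscle markers were also higher in the mutant-labelled group. Per 1000 CPM of these markers, Hey2 gave 10.0 ± 0.868 CPM in wild type and 7.96 ± 1.47 in mutant-labelled embryos. The ranges of 9.2 to 10.8 and 5.34 to 10.0 overlapped.

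Hes1, a widely used target that also oscillates in somite and neural progenitor cells, was at 57.4, 48.3, 51.9 and 54.6 CPM in wild type and at 47.9 to 61.9 CPM in mutant-labelled embryos (median 52.2). Its fold change was 1.01 (95% interval 0.911 to 1.12, adjusted p = 0.881). Hey1, expressed in somites, atria and arteries, was at 27.3, 32.0, 30.1 and 28.6 CPM in wild type and at 28.2 to 34.9 CPM in mutant-labelled embryos (median 30.6), with a fold change of 1.05 (95% interval 0.956 to 1.15, adjusted p = 0.379). The groups overlapped for both genes, and changes within these intervals were not detectable with 4 and 8 embryos.

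Hes5, the target most closely tied to neural progenitors, did not pass and had a wide spread among mutant-labelled embryos. It lay at 28.2, 26.9, 27.1 and 28.5 CPM in wild-type embryos 1 to 4 and at 17.8 to 39.0 CPM in mutant-labelled embryos (median 25.7): 3 mutant-labelled embryos exceeded and 5 fell below the whole wild-type range. The fold change was 0.997 (95% interval 0.747 to 1.33, adjusted p = 0.988). The SD of log2 CPM among mutant-labelled embryos was 10.6 times that among wild-type embryos, against a median ratio of 1.52 over all genes tested, and 99.4% of those genes had a lower ratio. The SD was 0.039 in wild type and 0.41 in mutant-labelled embryos. The wild-type SD rests on 4 embryos with 471 to 571 counts each. It is no larger than counting noise alone would give, which inflates the ratio. The difference in spread was not tested.

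The deviations of Hes5 from its group means were set beside those of 7 neural progenitor markers (Nes, Sox2 and Msi1 the most abundant). Of these markers none passed the test, and their summed level ran from 586 to 702 CPM in wild type and from 549 to 778 CPM in mutant-labelled embryos. After subtraction of the group means, Pearson's r between Hes5 and the mean of the markers was 0.84 over the 12 embryos (Spearman's rho 0.75; r = 0.72 without the 2 embryos farthest from the median marker score). Likewise r was 0.82 between Notch4 and the endothelial markers (rho 0.93; 0.84 without the 2 farthest) and 0.80 between Jag2 and the heart muscle markers (rho 0.79; 0.64 without the 2 farthest). Over the 8 mutant-labelled embryos alone r was 0.92 for Hes5, 0.77 for Notch4 and 0.87 for Jag2. Over the 4 wild-type embryos, too few to weigh, it was 0.26, 0.99 and 0.21, so the pooled values for Hes5 and Jag2 rest on the mutant-labelled embryos. These 3 were picked from 70 pairs of gene and marker list after their values were seen. Other pairs set side by side above had low coefficients. Between Hey2 and the heart muscle markers r was 0.18 over the 12 embryos and 0.01 over the 8 mutant-labelled embryos. Between Notch3 and the mural cell markers it was -0.24 over the 12 embryos. The points are whole libraries that share 1 scaling factor for both values, so the coefficients are descriptions. Per 1000 CPM of neural progenitor markers, Hes5 gave 44.5 ± 3.42 CPM (wild type) and 40.5 ± 7.16 CPM (mutant-labelled), with overlapping ranges of 40.2 to 48.0 and 31.8 to 50.2.

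**Figure D4:**
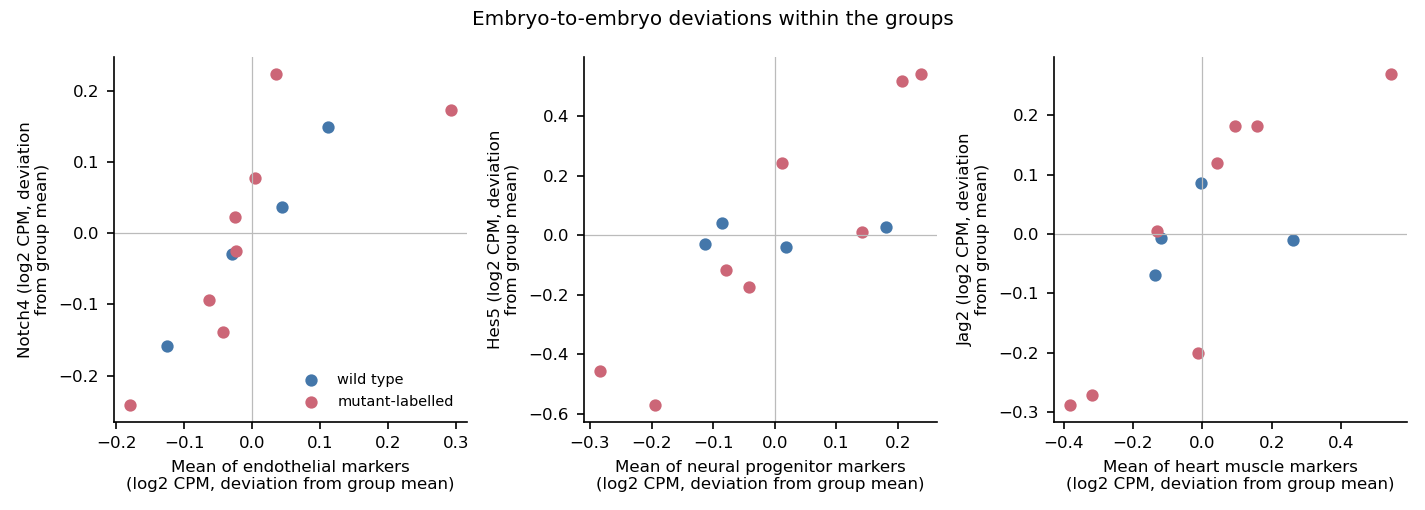
Deviation of Notch4, Hes5 and Jag2 from the group mean (vertical axes, log2 CPM) against the mean deviation of endothelial, neural progenitor and heart muscle markers (horizontal axes, log2 CPM); blue points are wild-type and red points mutant-labelled embryos. Over the 12 embryos r is 0.82, 0.84 and 0.80, and over the 8 mutant-labelled embryos 0.77, 0.92 and 0.87.

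Levels can be compared between genes only per length of transcript. Per kilobase of exon, Hes1 was the most abundant of the 10 in wild type, at 36.1 ± 2.64 CPM per kilobase (SD, n = 4), followed by Hes5 (21.7 ± 0.601) and Notch3 (21.6 ± 1.23), which overlapped. Jag1 (14.3 ± 1.78), Notch2 (12.5 ± 0.993), Hey1 (12.2 ± 0.82) and Notch1 (10.9 ± 1.69) formed a chain in which each gene overlapped its neighbour. Hey2 (5.38 ± 0.533), Jag2 (2.81 ± 0.13) and Notch4 (1.97 ± 0.181) followed with no overlap between them. In mutant-labelled embryos the first 3 and the last kept their places, and Jag2 moved to 8.0 ± 1.23 CPM per kilobase, where its range of 6.46 to 9.57 overlapped those of Notch1 and Hey2.

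The other genes of the pathway also moved in both directions. Of 60 listed, 55 were tested, and 17 rose, 13 fell and 25 did not pass, 54.5% called against 51.5% of all genes. Their median log2 fold change was -0.002 against 0.01 over all genes. With trends on GC content and length removed, 11 rose and 17 fell. Over all genes that setting gave 3206 higher and 4447 lower, against 3840 and 3583, and a median log2 fold change of -0.05. In the main fit 26.6% of all genes tested rose and 24.9% fell, shares that stand beside the counts of each list below. In 17.1% of them every mutant-labelled embryo lay below every wild-type embryo.

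Delta ligand genes, which with Jagged make up the canonical ligands, did not follow Jag2. Dll3, a ligand-like protein of the presomitic mesoderm that acts inside the cell, fell by 1.57 on the log2 scale (SE 0.44, adjusted p = 0.0118), from 23.2 ± 8.49 to 7.86 ± 3.35 CPM. Dll1, the main ligand of presomitic and neural tissue, fell by 0.60 (SE 0.22, adjusted p = 0.0374). It did not pass on leaving out wild-type embryo 2 (adjusted p = 0.096), 3 (0.0855) or 4 (0.113), without mutant-labelled embryo 1 (0.057), 5 (0.0529) or 6 (0.0633), and with no count filter (0.0638). Dll4, the arterial ligand, was at 8.76 ± 0.84 and 8.9 ± 1.48 CPM (adjusted p = 0.912).

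Other Hes and Hey genes moved both ways: of 4 tested, 1 rose and 2 fell. Hes7, the segmentation clock repressor, fell by 1.74 (SE 0.44, adjusted p = 0.00588), from 12.2 ± 2.5 to 3.66 ± 1.94 CPM, and all 8 mutant-labelled embryos lay below wild type. Hes3, a repressor of the midbrain and hindbrain, fell by 0.49 (SE 0.12, adjusted p = 0.00322), while Hes6, which counteracts Hes1 and promotes differentiation, rose by 0.46 (SE 0.08, adjusted p = 0.000135), and by 0.23 (adjusted p = 0.0229) with GC content and length trends removed. Heyl was at 2.25 ± 0.514 and 2.59 ± 1.37 CPM and did not pass (adjusted p = 0.668), and Hes2 and Helt were too low to test. Mutant-labelled embryo 2 was the lowest of its group in Dll1 (20.6 CPM), Dll3 (0.762 CPM) and Hes7 (0.238 CPM), as in the sum of the posterior markers. Wnt3a, 1 of those markers, was instead the highest of its group in that embryo, at 12.8 CPM. Without mutant-labelled embryo 2, Dll3 fell by 1.39, Hes7 by 1.56 and Dll1 by 0.51, with adjusted p of 0.000404, 0.000134 and 0.0285. Wild-type embryo 1 was the lowest of its group in Dll1 (36.6 CPM), Dll3 (11.0 CPM) and Hes7 (8.57 CPM). Over single left-out embryos the log2 fold change ran from -0.76 to -0.50 for Dll1, from -1.80 to -1.39 for Dll3 and from -1.90 to -1.56 for Hes7. Of the 7 posterior markers 4 fell, with sums of 237 to 338 CPM in wild type and 25.9 to 208 CPM in mutant-labelled embryos, and their part in the values of these 3 genes was not tested.

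Genes that modify ligands and receptors were split. Of 9, 3 rose and 4 fell. Mib1, the ubiquitin ligase that drives ligand endocytosis, had 99.8 ± 12.8 CPM in wild type and fell to 49.3 ± 8.33 CPM (log2 change -1.02, SE 0.12, adjusted p = 1.28e-05), and each mutant-labelled embryo lay below each wild-type embryo. Neurl1b, another ligase for Notch ligands, rose by 1.11 (SE 0.13, adjusted p = 4.7e-06) from 3.78 ± 0.537 CPM, and Rfng, a Fringe glycosyltransferase, by 0.78 (SE 0.09, adjusted p = 3.03e-06). Lfng, the Fringe gene of the segmentation clock, fell by 0.52 (SE 0.10, adjusted p = 0.000526). Each mutant-labelled embryo lay below the 4 wild-type embryos. Lfng, and Nrarp further on, were singled out after their values were seen.

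Of 10 genes for the proteases that cleave Notch, 6 rose and none fell, where 51.5% of all genes tested were called and 26.6% rose. Aph1b, which encodes a gamma-secretase subunit, had 2.3 ± 0.198 CPM in wild type and rose to 16.1 ± 2.14 CPM (log2 change 2.81, SE 0.13, adjusted p = 5.89e-10), and Aph1c from 0.516 ± 0.141 to 1.46 ± 0.421 CPM (1.48, SE 0.29, adjusted p = 0.000539). Aph1b and Aph1c are near-identical copies of each other, so reads could be assigned to either and the split between them is uncertain. Furin, the convertase that processes the receptor on its way to the surface, rose by 0.65 (SE 0.08, adjusted p = 1.74e-05).

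Of 14 nuclear genes 2 rose, 3 fell and 9 did not pass. Rbpj, the DNA-binding partner of the Notch intracellular domain, fell by 0.31 (SE 0.09, adjusted p = 0.0122), from 48.9 ± 1.63 to 39.3 ± 6.04 CPM. Mutant-labelled embryo 2 stood apart at 53.4 CPM, above all wild-type embryos, and the other 7 lay at 34.3 to 40.0 CPM. Without it the fall was 0.39 (adjusted p = 5.4e-05), and with GC content and length trends removed the call was lost (adjusted p = 0.082). Maml2, a coactivator, rose by 0.59 (SE 0.09) and Tle4, a Groucho corepressor used by Hes proteins, fell by 0.52 (SE 0.07), with adjusted p of 9.41e-05 and 1.35e-05. Rbpj has a near-identical pseudogene copy.

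Of 12 genes for turnover, inhibitors and atypical ligands, 5 rose and 2 fell. Dlk1, an imprinted atypical ligand, had 242 ± 46.7 CPM in wild type and rose to 624 ± 55.9 CPM (log2 change 1.37, SE 0.11, adjusted p = 3.05e-07), with no overlap. Numbl, related to the Notch inhibitor Numb, rose by 0.62 (SE 0.10), and Fbxw7, which marks the Notch intracellular domain for degradation, fell by 0.53 (SE 0.07), with adjusted p of 8.55e-05 and 2.52e-05. Nrarp, a feedback target of Notch, fell by 0.61 (SE 0.18, adjusted p = 0.0119). Wild-type embryo 1 was the lowest of its group in Nrarp, at 33.1 CPM. Over single left-out embryos its log2 fold change ran from -0.72 to -0.53. Of 6 proneural genes, which Hes proteins repress, 3 were abundant enough to test and none passed.

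**Figure D5:**
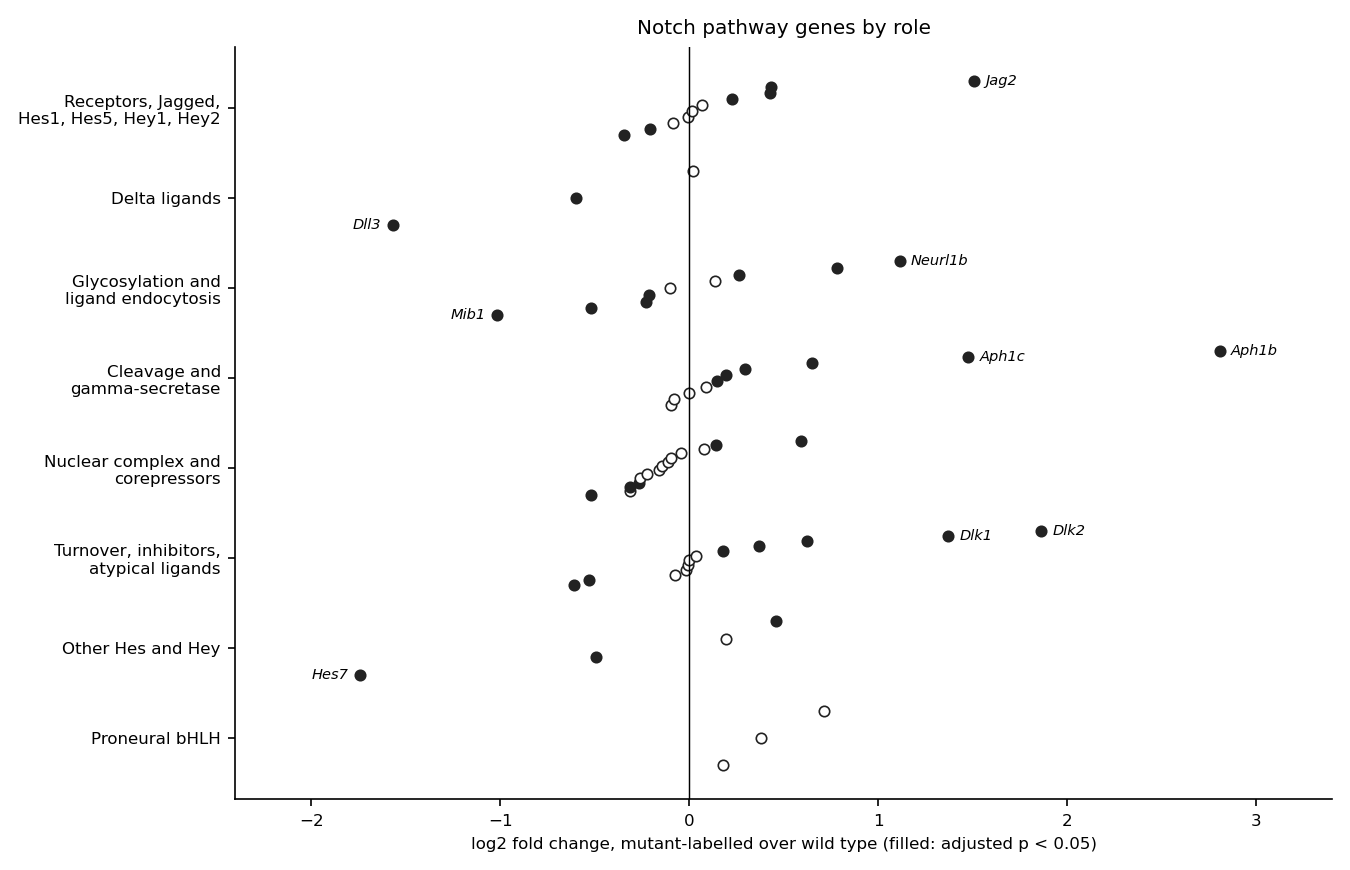
Log2 fold change of mutant-labelled over wild-type embryos (horizontal axis) for the 10 genes (top) and the 55 other pathway genes tested, grouped by role; filled points passed the 0.05 threshold and open points did not, and called genes far from 0 are named. Jag2 is the highest of the 10 genes, and the other roles hold rises such as Aph1b (2.81) and falls such as Hes7 (-1.74).

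The genes whose deviations from the group means were most like those of a member, among genes with a mean of at least 5 CPM, differed between the members. For Notch4 they were Pdgfb, Plxnd1 and Abhd16a (r = 0.89, 0.89 and 0.88 over 12 embryos), for Jag2 Gpi1, Gyg and Asb2 (0.92, 0.91 and 0.91), for Hes5 Ggh, Tmtc2 and BC068157 (0.97, 0.96 and 0.96), and for Hey2 Pik3ip1, Loxl3 and Armcx1 (0.89, 0.87 and 0.85). For Notch1 they were A730011L01Rik, Tshz2 and Hoxa5 (0.92, 0.92 and 0.91), for Notch2 Mllt4, Pxdn and Rere (0.98, 0.95 and 0.95), and for Notch3 Peli2, Zfp36l1 and Plxnb1 (0.95, 0.94 and 0.94). For Jag1 they were Prep, Nfx1 and Atxn2l (0.89, 0.87 and 0.87), for Hes1 Stard3, Pcsk1n and Decr1 (0.96, 0.92 and 0.91), and for Hey1 Aurka, Rem2 and 0610007C21Rik (0.89, 0.88 and 0.87). Such coefficients are the highest among all genes compared and carry no test.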

How the data were processed

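The authors' deposited table holds raw counts per gene symbol for 12 embryos. FastQC, STAR, featureCounts and DESeq2 with build mm9 are named in the submitters' processing notes; their versions, annotation and strand setting: not given in the sources used here. In GENCODE M21, Dll4 and Tgif2 each overlap a gene on the other strand that was also counted, and Notch1, Notch2, Notch3, Hes5, Dll1, Hes7, Nrarp, Numbl, Maml2, Furin and Aph1c overlap annotated genes whose symbols were not found among those counted; without the strand setting, reads of such pairs cannot be told apart. Groups come from the labels; replicate numbers follow sample order and pair nothing. The lowest chi-square per degree of freedom between libraries of a group was 3.89, so no pair agreed within sampling noise.

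Counts were fitted with edgeR 4.0.16 in R 4.3.3 (TMM, filterByExpr, robust quasi-likelihood F test, Benjamini-Hochberg over 14412 genes, threshold 0.05). CPM uses TMM-scaled library sizes. SE is the log2 fold change over the square root of F. Exon length is the merged GENCODE M21 basic annotation. On simulated counts of these genes the fit was checked. Correlations used log2(CPM + 0.5). Ratios to marker sums are descriptions. The litters of the embryos are unknown.

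The members and gene lists were chosen with earlier results of these data known. The genes named are all 10 members, the Delta genes, the other Hes and Hey genes, Tgif1 and Tgif2. Also named are up to 3 genes of lowest p per other pathway list, up to 3 most abundant markers, and the 3 genes most like each member. Lfng, Nrarp, Cspg4, Myh11, Rgs5 and Wnt3a were added after their values were seen. The fit was repeated with 2 other scalings (RLE, upper quartile), DESeq2 1.42.0, voom of limma 3.58.1 using sample quality weights, no or a stricter count filter, no robust estimation, the 50 most abundant genes removed, GC content and length trends removed, and embryos left out.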

Additional observations from a re-analysis of the deposited data

Results flagged for a closer look

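In 5 of 66 sets of 4 or 8 embryos examined, 1 embryo lay far from the rest of its own group by Dixon's test, which chance alone gives in about 1 of 20. Notch1 was at 80.0 CPM in wild-type embryo 1, and the other 3 wild-type embryos were at 109.5 to 116 CPM. Notch3 was at 119.8 CPM in mutant-labelled embryo 6, with the other 7 at 156 to 182 CPM. Rbpj was at 53.4 CPM in mutant-labelled embryo 2, with the others at 34.3 to 40.0 CPM. Hes6 was at 28.7 CPM in mutant-labelled embryo 1, with the others at 34.1 to 38.0 CPM. Lfng was at 47.2 CPM in wild-type embryo 3, with the others at 51.7 to 52.5 CPM.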

How the results depend on the processing

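Jag2, Notch4 and Hey2 rose in all 22 alternatives, Notch4 with an adjusted p of up to 0.0476. The count of fallen genes among the 10 was 2, but 1 with upper-quartile scaling, sample quality weights, no count filter, no robust estimation, or wild-type embryo 1 and mutant-labelled embryo 2 both left out; it was 3 with GC content and length trends removed, ran from 0 to 2 over single left-out embryos and was 0 without wild-type embryo 2. With GC content and length trends removed, 11 other pathway genes rose instead of 17 and 17 fell instead of 13, and the log2 fold changes of Dll4 (-0.14), Hes1 (-0.10) and Hey1 (-0.030) changed sign. Hes5 changed sign with upper-quartile scaling (0.0026), no count filter (0.0025) and both embryos out (0.014), Dll4 with both out (-0.027), and Heyl with quality weights (-0.21). Over single left-out embryos Dll4 ran from -0.028 to 0.073, Hes1 from -0.030 to 0.052, Hes5 from -0.096 to 0.066 and the Notch4 ratio to endothelial markers from -0.051 to 0.016. The cause was not tested. The ratios' left-out embryos were chosen after seeing the data. No paired analysis was possible because the labels give no litters or other link between embryos of the groups.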
